A study of Arabidopsis thaliana with 12 samples.

Results

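Cellulose is made at the plasma membrane of plant cells by rosettes of cellulose synthase (CESA) proteins, and the 10 genes described here encode these catalytic subunits and a pair of proteins that work beside them. CESA1, CESA2, CESA3, CESA5 and CESA6 serve the primary wall of growing cells, CESA4, CESA7 and CESA8 serve the thick secondary wall of xylem vessels and fibres, COBRA (COB) is a membrane-anchored wall protein needed for oriented microfibrils, and KORRIGAN1 (KOR1) is a membrane-bound endoglucanase of the cellulose synthase complex. The genes were taken by locus identifier from a list drawn up with earlier results of these data known, and all 10 of the 10 passed the filter on low values. They belong to a table of 33602 genes, of which 21316 were tested.

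Each rosette needs 3 different catalytic subunits. In the primary wall these are CESA1, CESA3 and a member of the CESA6 group, to which CESA2 and CESA5 also belong and in which members can partly stand in for each other. In the secondary wall CESA4, CESA7 and CESA8 are all required, and mutants that lack any of them have collapsed xylem vessels. In seedlings the primary wall genes are used in elongating organs such as the hypocotyl, while the secondary wall genes mark the few cells that differentiate into vessels.

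RNA was sequenced from whole Arabidopsis thaliana seedlings of wild-type Columbia, with no transgene or mutation in any group, so that every organ was mixed in each library. All seedlings grew at 22 °C in days with 10 h of white light at 100 µmol per square metre and second, with a red/far-red ratio of 1.1, until they were 3 days old. During the light period of day 4, lasting 10 h, they were kept under 1 of 4 conditions until the harvest at its end. These were white light and 20 °C (WL20), white light and 28 °C (WL28), shade and 20 °C (SH20), and shade and 28 °C (SH28). Each group had 3 libraries, described as biological replicates. Warmth stands for 28 against 20 °C within a light, and shade in the cool and in the warm for SH20 against WL20 and SH28 against WL28. The labels gave no light intensity or red/far-red ratio for the shade treatment, and did not say how many seedlings were pooled.

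The 12 libraries held 3500325 to 4481869 reads assigned to genes, so that 1 unit of the authors' scaled count (CPM) stood for 3.5 to 4.48 reads. Values are the authors' log2 CPM, and differences between groups are log2 changes with limma standard errors (SE), for which the spread was estimated over all 4 groups with 3 libraries in each. A gene was called when its Benjamini-Hochberg adjusted p over all 21316 tested genes was under 0.05, and p-values measure the spread between the labelled replicates. Summed markers of green tissue stood at 23259 to 23544 CPM in WL20 and at 7983 to 18284 CPM in the other groups. Summed root markers stood at 2979 to 4444 CPM at 20 °C and at 4781 to 4950 CPM at 28 °C and came almost wholly from 1 gene, PYK10. Of the xylem markers, XCP1, XCP2 and LAC4 had reads in every library, and the vessel regulator VND7 was at 0 in 3 of 12 libraries.

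Members shared little sequence that could mix their reads. CESA5 and CESA6 were the closest pair, with 85.7% identical coding bases, the pairs among CESA2, CESA5 and CESA6 lay between 78.1% and 85.7%, and the other 25 pairs of CESA genes between 66.7% and 71.1%. CESA5 and CESA6 shared a single word of 50 bases, and no other pair of members shared any. No member had the same reads in all libraries as another gene. CESA8 was the exception in position, since 16.8% of its longest transcript was overlapped by neighbouring genes, among them a noncoding RNA (AT4G06845) on the other strand. The labels did not name a strand-preserving protocol, so reads of these overlaps cannot be told apart, while in the other members at most 2.26% of the transcript was overlapped.

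Levels per kilobase of transcript spanned a wide range. Averaged over the 12 libraries, KOR1 stood at 205 CPM per kb, CESA3 at 155, CESA1 at 133, COB at 105 and CESA6 at 95.4. CESA2 followed with 39.3 and CESA5 with 28.3 CPM per kb, and the secondary wall genes came last, CESA4 with 7.24, CESA7 with 7.02 and CESA8 with 6.22. Each gene stood above the next in this order in at least 11 of 12 libraries, except that CESA4 was above CESA7 in 6 of 12 and CESA7 above CESA8 in 8 of 12, so the secondary wall genes were not ordered beyond their spread. Per kilobase of coding sequence CESA1 came after COB (174 against 180 CPM per kb), and no other place in the order differed. The ratio of the highest to the lowest library was 1.18 for COB, 1.36 to 1.86 for the primary wall genes, 1.72 for KOR1 and 1.61 to 2.54 for the secondary wall genes. CESA8, at 52 to 125 reads in a library, rested on the fewest counts, and every primary wall gene had at least 295.

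**Figure D1:**
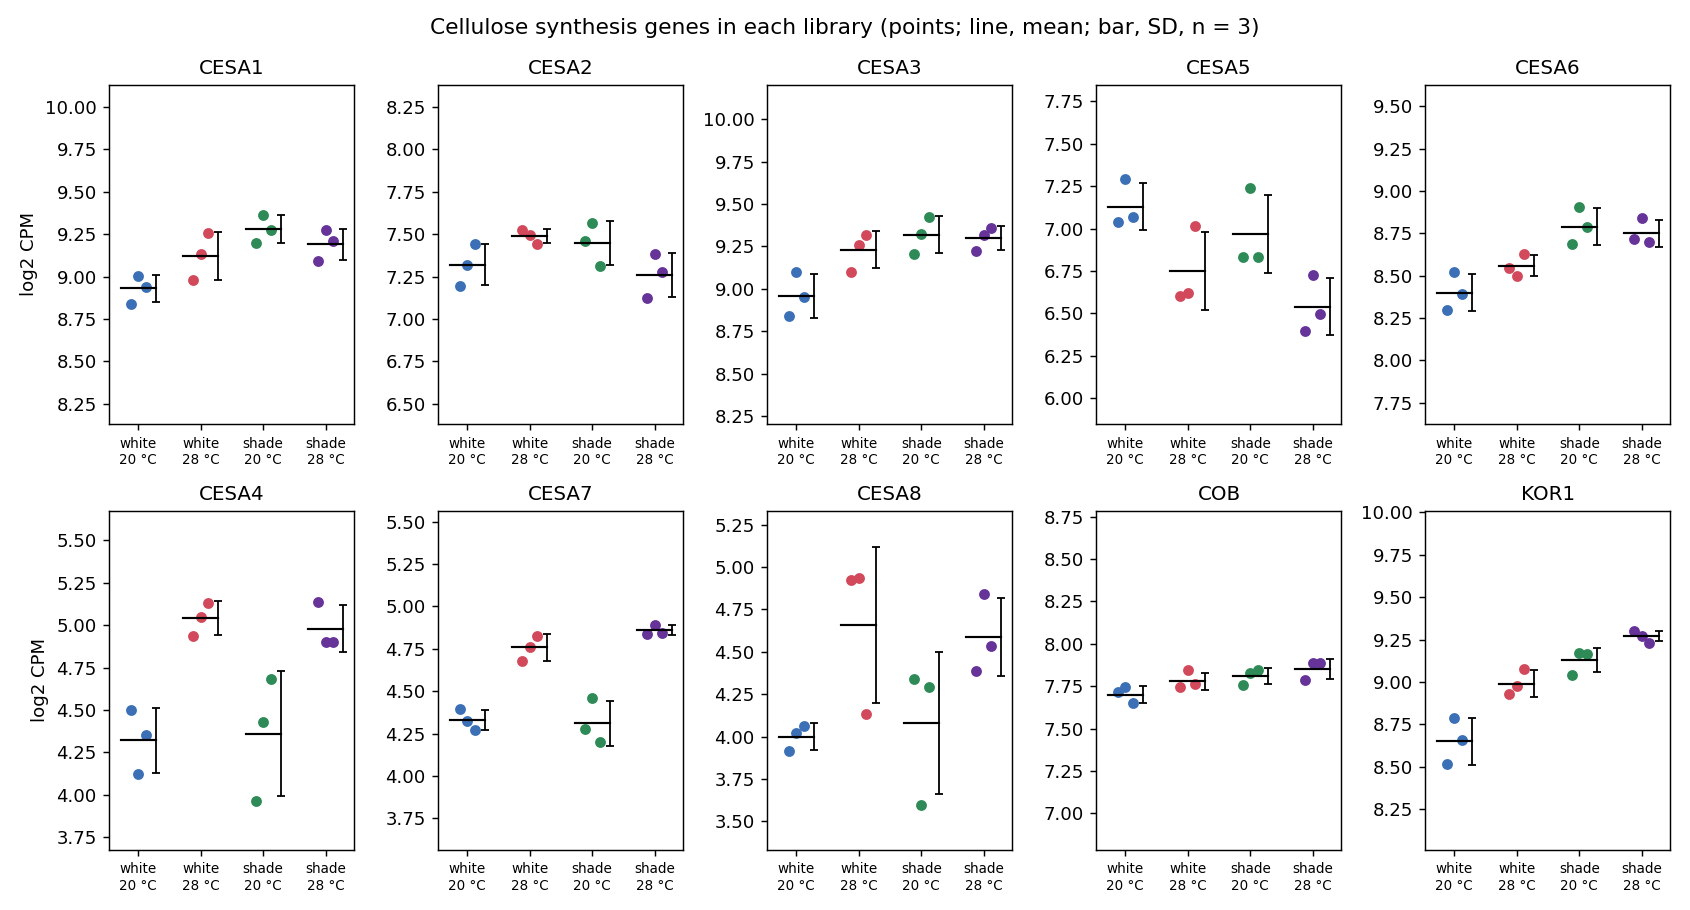
Log2 CPM of the 10 members (vertical axes) in the 12 libraries, by group, with a point per library, a line at the mean and an error bar of 1 SD (n = 3). CESA4, CESA7 and CESA8 were higher in the 28 °C groups in both lights, KOR1 was lowest in WL20, and the COB libraries lay within 7.65 and 7.89.

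The secondary wall genes were first described by their upstream sequences, because they moved together. The 250 bases before each annotated start are printed 5′ to 3′ from RefSeq on build TAIR10.1, with capitals for matches to any of 6 searched motifs. CESA4 (AT5G44030) lies at chr5:17714390-17719723 on the forward strand with 12 exons, CESA7 (AT5G17420) at chr5:5736630-5741500 on the reverse strand with 12 exons, and CESA8 (AT4G18780) at chr4:10312624-10316886 on the reverse strand with 12 exons.
CESA4 (chr5:17714140-17714389, forward strand): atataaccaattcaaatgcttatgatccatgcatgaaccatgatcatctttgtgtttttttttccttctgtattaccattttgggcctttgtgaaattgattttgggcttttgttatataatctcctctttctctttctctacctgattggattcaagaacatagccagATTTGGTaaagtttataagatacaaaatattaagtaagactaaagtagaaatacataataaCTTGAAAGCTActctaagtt
CESA7 (chr5:5741501-5741750, reverse strand): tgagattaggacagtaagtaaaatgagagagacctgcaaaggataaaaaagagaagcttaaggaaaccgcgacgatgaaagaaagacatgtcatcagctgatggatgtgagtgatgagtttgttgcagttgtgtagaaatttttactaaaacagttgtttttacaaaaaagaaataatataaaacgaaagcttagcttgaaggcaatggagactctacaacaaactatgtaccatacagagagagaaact
CESA8 (chr4:10316887-10317136, reverse strand): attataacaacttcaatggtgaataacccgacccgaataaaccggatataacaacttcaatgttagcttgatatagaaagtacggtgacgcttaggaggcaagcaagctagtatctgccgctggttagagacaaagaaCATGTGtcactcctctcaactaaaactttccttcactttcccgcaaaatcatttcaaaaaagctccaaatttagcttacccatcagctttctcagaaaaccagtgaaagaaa

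In the CESA4 promoter the capitals 20 to 10 bases before the start are the tracheary element motif TERE, and those 81 to 75 bases before the start are the secondary wall MYB motif SMRE. TERE is known from promoters of vessel genes and was present in 0.368% of 27443 promoters of the same length, and in no other member. SMRE, bound by secondary wall MYB factors, was searched in its 8 spellings from ACCAAAC to ACCTACT, with A or T as the fourth base, A or C as the sixth and C or T as the last. It was present in 29.4% of promoters and in CESA1, CESA5, CESA4 and COB. The capitals in CESA8, 112 to 107 bases before the start, are a PBE-box, CACATG read on the other strand, a motif bound by phytochrome-interacting factors that 11.1% of promoters held. The G-box CACGTG (6.49% of promoters), the brassinosteroid element CGTGCG or CGTGTG (6.71%) and the heat shock element (0.386%) had no match in the 10 members. Both strands were searched, some promoters of neighbouring genes overlap, and a match or its absence describes only these letters in this window.

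With warmth CESA4 and CESA8 rose in white light and CESA4 and CESA7 in shade, and none of the 3 was called for shade at either temperature. CESA4 had log2 values of 4.50, 4.12 and 4.35 in WL20, 4.94, 5.04 and 5.13 in WL28, 3.96, 4.43 and 4.68 in SH20 and 5.14, 4.90 and 4.90 in SH28. All 6 libraries at 28 °C were above all 6 at 20 °C. In white light CESA4 rose with warmth by 0.71 ± 0.18 on the log2 scale, or 1.64-fold (limma adjusted p = 0.00631). Of all tested genes 15.6% were called in this comparison, 10.8% as higher and 4.8% as lower. Of the 10 members 3 rose and 1 fell, with a median log2 change of 0.23 against 0.16 over all tested genes.

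CESA7 stood at 4.40, 4.32 and 4.27 in WL20, 4.68, 4.76 and 4.83 in WL28, 4.28, 4.46 and 4.20 in SH20 and 4.84, 4.89 and 4.84 in SH28. The warm libraries again lay above all others. CESA8 stood at 3.91, 4.02 and 4.06 in WL20, 4.93, 4.93 and 4.13 in WL28, 4.34, 3.60 and 4.29 in SH20 and 4.39, 4.84 and 4.53 in SH28. Within each light its warm libraries were all higher, although WL28 replicate 3 was close to the cool libraries. In white light CESA8 rose by 0.67 ± 0.22 (limma adjusted p = 0.0408), and CESA7 differed by 0.43 ± 0.16 (limma adjusted p = 0.0645) without passing the test.

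In shade, CESA4 rose with warmth by 0.62 ± 0.18 (limma adjusted p = 0.0437) and CESA7 by 0.54 ± 0.16 (limma adjusted p = 0.0457), which were the 2 members called out of 10 where 4.18% of all genes were called, 2.19% as higher and 1.99% as lower. CESA8 differed by 0.51 ± 0.22 (limma adjusted p = 0.234) without passing. Averaged over both lights, a comparison added with results known, all 3 genes rose with warmth, CESA4 by 0.67 ± 0.13 (limma adjusted p = 0.000335), CESA7 by 0.48 ± 0.11 (0.00237) and CESA8 by 0.59 ± 0.16 (0.00875). In that comparison 19.1% of all genes were called, 13.1% as higher and 5.94% as lower, and 4 members rose and 1 fell. The interaction of light and temperature was not past the test for CESA4 (-0.09, 95% interval -0.60 to 0.43), CESA7 (0.12, -0.34 to 0.57) or CESA8 (-0.16, -0.80 to 0.49). These intervals are wide enough to hold differences about as large as the warmth effects themselves.

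For shade in the cool the log2 changes were 0.03 ± 0.18 for CESA4, -0.02 ± 0.16 for CESA7 and 0.08 ± 0.22 for CESA8, with limma adjusted p-values from 0.896 to 0.973. At 28 °C the shade differences were -0.06 ± 0.18, 0.10 ± 0.16 and -0.08 ± 0.22. Averaged over both temperatures, the 95% intervals of the shade effect ran from -0.27 to 0.25 for CESA4, from -0.18 to 0.27 for CESA7 and from -0.32 to 0.32 for CESA8. In SH28 against WL20, CESA4 rose by 0.66 ± 0.18 (limma adjusted p = 0.00789) and CESA7 by 0.53 ± 0.16 (0.0153), and CESA8 differed by 0.59 ± 0.22 (0.0569). Comparisons against WL20 share those 3 control libraries. Set directly against warmth alone, a comparison added with results known, shade alone gave lower CESA4, at -0.68 ± 0.18 (limma adjusted p = 0.0152). CESA4 was the only 1 of 10 members called there, where 7.85% of all genes were called, 3.46% as higher and 4.39% as lower. CESA7 differed by -0.44 ± 0.16 (limma adjusted p = 0.0849) and CESA8 by -0.59 ± 0.22 (limma adjusted p = 0.112), without passing. CESA1, CESA3, CESA6 and KOR1 differed by 0.16, 0.09, 0.24 and 0.13, none of them a call. The direct comparison thus set the wall types apart by a call for CESA4 alone.

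Leaving out 1 library ended several of these calls. The CESA4 call in white light held in all 12 such fits and was lost only without the library richest in 18S reads of each group (limma adjusted p = 0.0874). The CESA8 call in white light was lost without any 1 of the 3 libraries of WL20 (0.62 to 0.70) and without WL28 replicate 1 or 2 (0.53 each, limma adjusted p = 0.163 and 0.187), while without replicate 3 of that group the change was 0.93. In shade the CESA4 call was lost in 6 of the 12 fits, most without SH20 replicate 1 (0.42, limma adjusted p = 0.251). The CESA7 call in shade was lost in 9 of 12, with changes between 0.49 and 0.62 and limma adjusted p-values between 0.0479 and 0.132. Neither call in shade passed after subtraction of the library medians (0.51 for CESA4 and 0.44 for CESA7, limma adjusted p = 0.104 and 0.132), by quantile normalization (0.0851 and 0.113) or by trimmed mean scaling (0.0815 and 0.0979). The averaged warmth effects of all 3 genes passed in every fit that left out 1 library. With a constant prior variance the averaged CESA8 call was lost (limma adjusted p = 0.0633). Without the libraries richest in 18S reads the averaged CESA7 call was lost (limma adjusted p = 0.0523). CESA4 set directly against warmth alone lost its call without WL28 replicate 2 or 3 (-0.67 and -0.63) and without SH20 replicate 1 (-0.48, limma adjusted p = 0.121), with a constant prior variance (limma adjusted p = 0.077), and without the libraries richest in 18S reads (-0.43, limma adjusted p = 0.257).

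**Figure D2:**
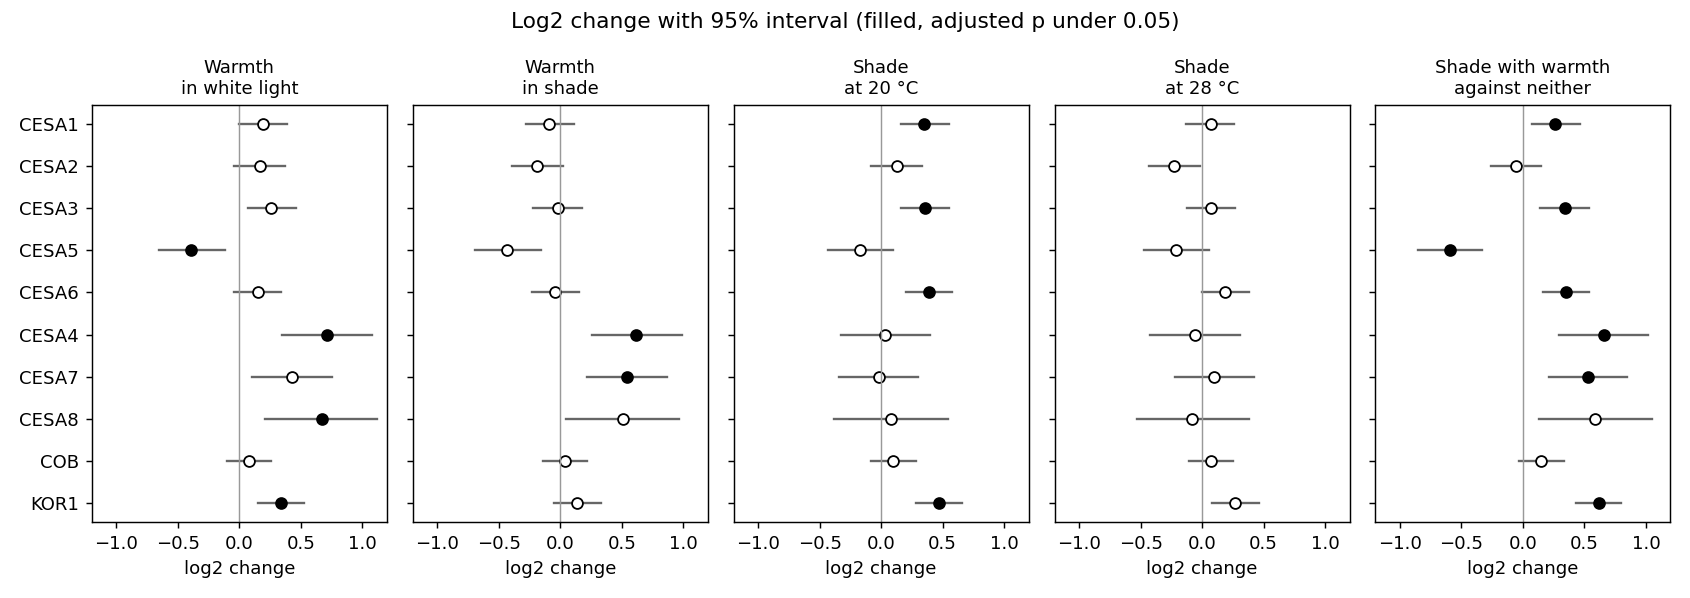
Log2 changes (horizontal axis) of the 10 members in the 5 comparisons between pairs of groups, with 95% limma intervals and filled points for those past the adjusted threshold of 0.05. CESA4, CESA7 and CESA8 lay to the right under warmth and near 0 under shade, and CESA1, CESA3, CESA6 and KOR1 lay to the right under shade in the cool.

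Other genes of xylem walls and vessels were counted from a list of 14. Warmth raised 6 of 14 in white light and 4 of 14 in shade, and lowered none of them in either, where 10.8% and 2.19% of all genes were called higher. The median log2 changes were 0.55 and 0.64 against 0.16 and 0.08 over all genes. Shade raised 1 of 14 at 20 °C and none at 28 °C, with medians of -0.01 and 0.10, where 5.43% and 2.68% of all genes were called higher. Shade with warmth raised 8 of 14, where 14.9% of all genes were called higher. XCP2, a xylem cysteine peptidase, stood at 5.54, 5.74 and 6.02 in WL20, 6.46, 6.33 and 6.46 in WL28, 5.59, 5.55 and 5.80 in SH20 and 6.46, 6.61 and 6.53 in SH28. Its warm libraries were all above its cool ones, with rises of 0.65 ± 0.12 in white light (limma adjusted p = 0.00042) and 0.89 ± 0.12 in shade (limma adjusted p = 5.39e-05). LAC17, a laccase of lignin formation, rose by 0.67 ± 0.16 in white light and by 0.75 ± 0.16 in shade (limma adjusted p = 0.00524 and 0.00691). FRA8, a glycosyltransferase of xylan synthesis, was the gene raised by shade in the cool, by 0.85 ± 0.18 (limma adjusted p = 0.00174), and it also rose with warmth in white light, by 0.59 ± 0.18 (limma adjusted p = 0.0235).

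Of 18 listed regulators of the secondary wall programme, 14 were tested, and SND1, NST1, NST2 and MYB103 were below the filter. With warmth 1 of 14 rose in white light and 1 in shade, and 2 rose under shade with warmth, where 10.8%, 2.19% and 14.9% of all genes were called higher. VNI2, a NAC protein that binds and represses the vessel regulator VND7, rose with warmth in both lights, by 0.49 ± 0.15 in white light (limma adjusted p = 0.0207) and 0.55 ± 0.15 in shade (limma adjusted p = 0.0288). MYB63, a lignin regulator, was called for shade with warmth and in none of the other comparisons between pairs of groups, rising by 0.86 ± 0.28 (limma adjusted p = 0.0263). The VND genes and MYB46 and MYB83, the switches upstream of the secondary wall, had no call in any of the 5 comparisons, at a depth of 0 to 28 reads per library (0 to 5 for VND7) that limits what could be detected. Over the 14 the median log2 change with warmth was 0.35 in white light and 0.32 in shade, against 0.16 and 0.08 over all genes.

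**Figure D3:**
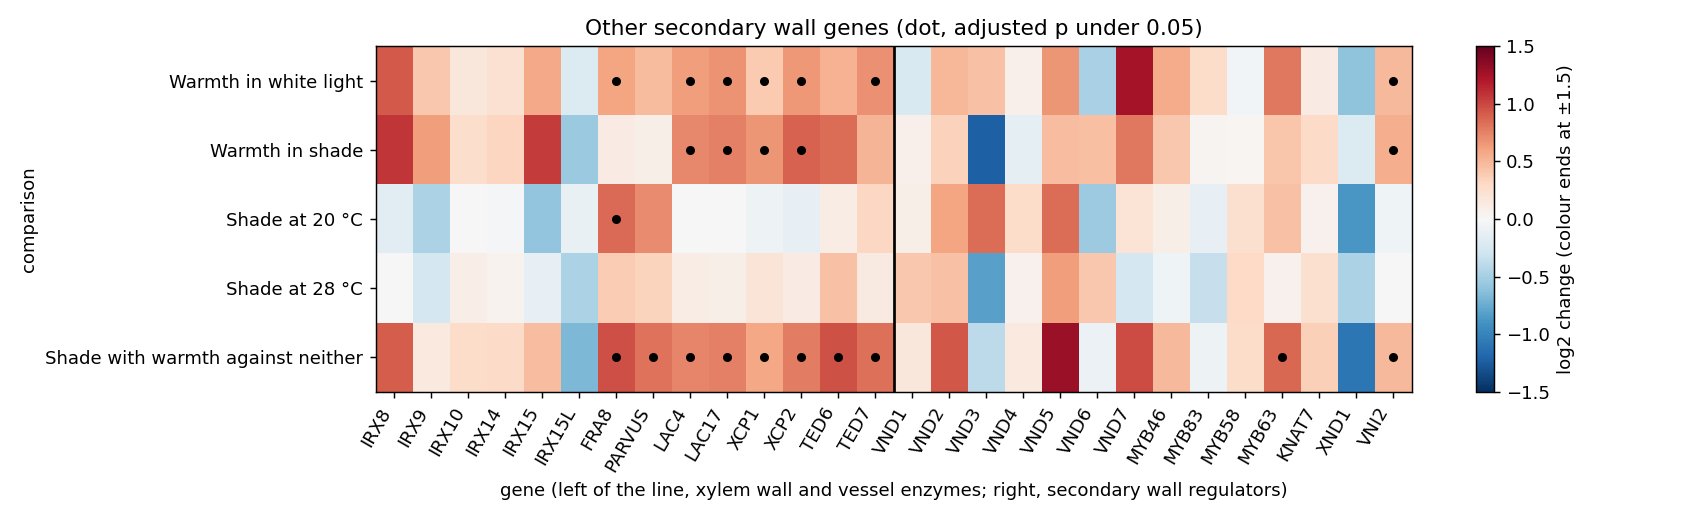
Log2 changes (colour, cut at ±1.5) of the 14 xylem wall and vessel enzymes and 14 secondary wall regulators (columns) in the 5 comparisons between pairs of groups (rows), with a dot where the adjusted p was under 0.05. In each light 13 of 14 enzymes had a change above 0 with warmth, against 7 of 14 for shade in the cool. Of all 21316 tested genes, 14190 had a change above 0 with warmth in white light, 12948 with warmth in shade and 11980 with shade in the cool.

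In bulk libraries, more cells of a type and more RNA per cell of that type cannot be told apart. The summed xylem list stood at 229 to 271 CPM in WL20, 344 to 362 in WL28, 257 to 266 in SH20 and 372 to 404 in SH28. The markers of the procambium, from which xylem forms, gave no call among ATHB8, PXY and WOX4 in any comparison, and their sums of 58.6 to 81.9 CPM overlapped between all groups. WOX4 was at 0 in 1 library. Phloem markers (125 to 167 CPM) gave no call either. The summed root markers followed 1 gene, PYK10, a root glucosidase: their sums of 4884 to 4950 CPM in WL28 and 4781 to 4928 CPM in SH28 lay above the 2979 to 4137 and 3519 to 4444 CPM at 20 °C, and PYK10 rose with warmth in white light by 0.45 ± 0.13 (limma adjusted p = 0.0176). The other 4 had no call for warmth in either light, with SCR at mean log2 values of 5.33 in WL20 and 5.18 in WL28 and SHR at 4.45 and 4.47. The median change of the 5 equalled that of all genes in white light, 0.16. In shade the median of the 5 was 0.23 against 0.08 over all genes. All 5 changes in shade were above 0, as were those of 12948 of all 21316 tested genes. Green tissue markers fell with warmth, 3 of 3 in white light and 2 of 3 in shade, where 4.8% and 1.99% of all genes were called lower. Reads of 18S ribosomal RNA took 0.535% to 1.67% of a library at 20 °C and 0.839% to 2.35% at 28 °C. Without the library richest in them in each group CESA4 differed by 0.56 with warmth in white light and by 0.46 in shade, and CESA7 by 0.51 in shade, none of them a call (limma adjusted p = 0.0874, 0.302 and 0.267), and the averaged effect of 0.45 on CESA7 missed the threshold (limma adjusted p = 0.0523). The part of root or green tissue in the rise of the secondary wall genes was not tested.

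CESA1, CESA3 and CESA6, which form the main primary wall complex, rose with shade at 20 °C. CESA1 (AT4G32410, chr4:15640490-15646844, reverse strand, 14 exons) stood at 8.84, 9.00 and 8.94 in WL20, 8.98, 9.13 and 9.26 in WL28, 9.20, 9.36 and 9.28 in SH20 and 9.09, 9.28 and 9.21 in SH28. WL20 was lowest, with an overlap only against WL28. CESA3 (AT5G05170, chr5:1530132-1535558, reverse strand, 15 exons) stood at 8.84, 9.10 and 8.95, then 9.10, 9.26 and 9.31, then 9.21, 9.32 and 9.43, and then 9.22, 9.32 and 9.36 in the same 4 groups. CESA6 (AT5G64740, chr5:25881033-25886728, forward strand, 13 exons) stood at 8.29, 8.52 and 8.39, then 8.55, 8.50 and 8.62, then 8.69, 8.90 and 8.79, and then 8.72, 8.84 and 8.70. For CESA6 all 6 shade libraries lay above all 6 white light libraries.

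At 20 °C shade raised CESA1 by 0.35 ± 0.10 (limma adjusted p = 0.0179), CESA3 by 0.36 ± 0.10 (0.0184) and CESA6 by 0.39 ± 0.09 (0.0066), or 1.3-fold. With KOR1 these made 4 of 10 members called, all higher, where 8.09% of all genes were called, 5.43% as higher and 2.66% as lower. The median log2 change of the members was 0.12 against 0.05 over all genes. In SH28 against WL20 the log2 changes were 0.26 ± 0.10 for CESA1 (limma adjusted p = 0.046), 0.34 ± 0.10 for CESA3 (0.0118) and 0.35 ± 0.09 for CESA6 (0.00713), all of them calls. There 7 of 10 members were called, 6 higher and 1 lower, where 22.3% of all genes were called, 14.9% as higher and 7.42% as lower, and the members' median was 0.34 against 0.16.

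At 28 °C none of the 10 members was called for shade, where 4.59% of all genes were, 2.68% as higher and 1.9% as lower. By limma 3 of them, CESA2, CESA6 and KOR1, had an unadjusted p under 0.05, and a fit with weights per value called KOR1. CESA6 differed by 0.19 ± 0.09 (limma adjusted p = 0.312). Warmth gave no call for CESA1, CESA3 or CESA6 in either light. In white light the differences were 0.19 ± 0.10, 0.26 ± 0.10 and 0.15 ± 0.09, and in shade -0.09, -0.02 and -0.04. In white light CESA3 was close to the threshold (limma adjusted p = 0.0638). A robust prior variance (limma adjusted p = 0.0367), quantile normalization (0.0402), weights per value (0.0315) and a replicate block (0.0357) called it higher. So did the fits without WL20 replicate 2 (0.0439) or WL28 replicate 1 (0.0387). The interaction, which tests whether the warmth effect differed between lights, passed for 0 of 10 members, with 0.446% of all genes called, 0.127% as higher and 0.319% as lower. By limma CESA1 (-0.28, unadjusted p = 0.0446), CESA3 (-0.28, unadjusted p = 0.0489) and CESA2 (-0.36 ± 0.14, unadjusted p = 0.0182) had the smallest values, and the lowest adjusted p was 0.38. A smaller shade response in the warm was thus not shown for any of them.

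The CESA1 call for shade in the cool was lost without WL20 replicate 1 or 3 (0.31 and 0.36) or SH20 replicate 2 or 3 (0.31 and 0.35), at limma adjusted p-values up to 0.0894. The CESA3 call was lost without WL20 replicate 1 or 3 (0.29 and 0.35) or SH20 replicate 3 (0.30, limma adjusted p = 0.119), and the CESA6 call without WL20 replicate 1 (0.33, limma adjusted p = 0.0507). A constant prior variance and quantile normalization ended all 3 calls (for CESA6, limma adjusted p = 0.0773 and 0.0652). Trimmed mean scaling ended those of CESA1 and CESA3 (limma adjusted p = 0.0631 and 0.0646). Under shade with warmth CESA1 lost its call in 8 of 12 fits without 1 library (0.22 to 0.31), and CESA3 without WL20 replicate 1 (0.28) or SH28 replicate 3 (0.31). The CESA6 call there was lost with a constant prior variance, median subtraction, quantile normalization and trimmed mean scaling (limma adjusted p = 0.052, 0.176, 0.0626 and 0.135). Averaged over temperatures, a comparison added with results known in which 11.6% of genes were called, 6.89% as higher and 4.68% as lower, CESA1 (0.21 ± 0.07), CESA3 (0.22 ± 0.07) and CESA6 (0.29 ± 0.07) rose with shade, and the CESA6 call (limma adjusted p = 0.0029) was the one of these 3 that held in all fits. CESA1 and CESA3 each lost that call in 8 of 12 fits without 1 library, at 0.18 to 0.24 and 0.18 to 0.25.

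Epidermis markers moved with shade beside these genes. Their sum was 536 to 538 CPM in WL20 and 701 to 925 CPM in SH20, with 544 to 697 CPM in WL28 and 735 to 823 CPM in SH28. Of 3 markers 2 rose with shade in the cool, where 5.43% of all genes were called higher. PDF1, a gene of the outer cell layer, rose by 0.86 and FDH, an enzyme of cuticle lipids, by 0.51. None of the 3 was at 0 in any library. Among the root markers TIP2;3, a tonoplast water channel of roots, rose with shade by 1.81 ± 0.46 at 20 °C (limma adjusted p = 0.0111) and by 1.76 ± 0.46 at 28 °C (limma adjusted p = 0.0208), from 6 to 44 reads per library in white light to 37 to 90 in shade, and the other 4 had no call for shade. Green tissue markers fell with shade in the cool in 2 of 3, where 2.66% of all genes were called lower. The part of any of these tissues in the rise of the primary wall genes was not tested.

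CESA5, a member of the CESA6 group also known from seed coat mucilage, fell under shade with warmth while its paralog CESA6 rose. Upstream of their starts CESA5 and CESA6 share a word of 13 bases, the longest found in both promoters on the same strand. It was held by 0.0109% of 27443 promoters on either strand (3 promoters). The word was picked for its length after the sequences were read, so its rarity is no test. It is shown in capitals in windows of 60 bases from RefSeq TAIR10.1, 63 to 51 bases before the CESA5 start and 70 to 58 bases before the CESA6 start, for this pair of paralogs whose levels parted.
CESA5 (chr5:3072784-3072843, forward strand): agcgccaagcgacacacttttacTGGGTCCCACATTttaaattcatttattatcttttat
CESA6 (chr5:25880940-25880999, forward strand): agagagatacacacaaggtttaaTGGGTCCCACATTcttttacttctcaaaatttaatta

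CESA5 (AT5G09870, chr5:3072870-3078416, forward strand, 13 exons) stood at 7.04, 7.29 and 7.07 in WL20, 6.60, 6.62 and 7.02 in WL28, 6.83, 7.24 and 6.83 in SH20 and 6.40, 6.73 and 6.50 in SH28. Within each light all warm libraries were below all cool ones. In white light CESA5 fell by 0.39 ± 0.13 with warmth, or 1.31-fold (limma adjusted p = 0.0395). In shade the change was -0.43 ± 0.13 (limma adjusted p = 0.0561), short of the threshold. Of the 12 settings other than leaving out 1 library, 8 gave a call. When 1 library was left out, only the fits without WL28 replicate 3 or SH28 replicate 2 gave a call. With shade and warmth together CESA5 fell by 0.59 ± 0.13, or 1.51-fold (limma adjusted p = 0.00108), a call that held in every fit. The average over both lights fell by 0.41 ± 0.09 (limma adjusted p = 0.00192), a call lost only with a constant prior variance (limma adjusted p = 0.0507). For shade in the cool the CESA5 change was -0.17 ± 0.13 (limma adjusted p = 0.518).

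The white light call for CESA5 was lost without WL20 replicate 2 or 3 (-0.31 and -0.42) and without WL28 replicate 1 or 2 (-0.31 and -0.32), at limma adjusted p-values up to 0.178. As a share of the summed level of the 5 primary wall genes per kb, CESA5 was at 8.51 ± 0.354% in WL20 (SD, n = 3), 5.82 ± 0.64% in WL28, 6.17 ± 0.765% in SH20 and 4.84 ± 0.349% in SH28. Its lowest library in WL20, 8.13%, was above the highest of the other groups, 7.02%. CESA6 took 20.4 ± 0.198% of that sum in WL20 and 22.2 ± 0.915% in SH28.

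CESA2 (AT4G39350, chr4:18296388-18302192, forward strand, 13 exons), the other paralog of CESA6, was not called in any comparison. It stood at 7.20, 7.32 and 7.44 in WL20, 7.52, 7.49 and 7.44 in WL28, 7.46, 7.57 and 7.31 in SH20 and 7.12, 7.38 and 7.28 in SH28. Between pairs of groups the largest difference was for shade in the warm, where the shade libraries were all lower, at -0.23 ± 0.10 (limma adjusted p = 0.256).

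KOR1 had the strongest test of the 10 members. KOR1 (AT5G49720, named GH9A1 in RefSeq, chr5:20197391-20200468, reverse strand, 6 exons) stood at 8.51, 8.79 and 8.66 in WL20, 8.93, 8.97 and 9.08 in WL28, 9.04, 9.17 and 9.16 in SH20 and 9.30, 9.27 and 9.23 in SH28. WL20 was below every other library and SH28 above every other. KOR1 rose with warmth in white light by 0.34 ± 0.09 (1.27-fold, limma adjusted p = 0.0114), with shade in the cool by 0.47 ± 0.09 (1.39-fold, 0.000914) and with both by 0.62 ± 0.09 (1.53-fold, 1.31e-05). The calls for shade in the cool and for both together held in every fit. The call for warmth in white light was lost without WL20 replicate 1 (0.27, limma adjusted p = 0.0737) and with a constant prior variance (0.0681). Median subtraction (0.19, limma adjusted p = 0.26) and trimmed mean scaling (0.20, limma adjusted p = 0.202) ended it too. In addition to either treatment the other gave smaller differences that did not pass, 0.27 ± 0.09 for shade in the warm (limma adjusted p = 0.0967) and 0.14 ± 0.09 for warmth in shade (limma adjusted p = 0.467). Its interaction of -0.20 ± 0.13 (limma adjusted p = 0.648) did not pass.

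COB (AT5G60920, chr5:24511152-24514338, reverse strand, 7 exons) was the steadiest member. It stood at 7.71, 7.75 and 7.65 in WL20, 7.74, 7.84 and 7.76 in WL28, 7.76, 7.83 and 7.84 in SH20 and 7.79, 7.89 and 7.88 in SH28. All 6 shade libraries were above the 3 libraries of WL20, but no comparison passed, the 95% interval for shade in the cool being -0.08 to 0.28 and that for shade with warmth -0.03 to 0.33. Relative to the summed primary wall CESA level per kb, KOR1 stood at 0.397 ± 0.0084 in WL20, 0.448 ± 0.00752 in WL28, 0.447 ± 0.009 in SH20 and 0.522 ± 0.0367 in SH28 (SD, n = 3). COB stood at 0.249 ± 0.018, 0.234 ± 0.0164, 0.216 ± 0.00798 and 0.236 ± 0.00489 in the same order. The ratio of KOR1 to the catalytic subunits was thus lowest in WL20 and highest in SH28 in every library, and alike in WL28 and SH20. The SH28 spread came mostly from 1 library at 0.564. This is a description with no test.

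CESA1, COB and KOR1 share a word of 10 bases upstream of their starts, the only word of this length with more than 2 kinds of base that 3 members held on the coding strand. It was picked from all words of this length that members share, so its rarity is no test. On either strand 8 of 27443 promoters (0.0292%) held it, at 7 distinct sites. A further holder was CTL1 (POM1 in RefSeq), a chitinase-like protein required for cellulose deposition, on the opposite strand and in a stretch shared with the neighbouring gene AT1G05860. The remaining holders were AT3G10810, AT3G24840 and EXPB3. The word lies 77 to 68 bases before the start in CESA1, 185 to 176 in COB, 215 to 206 in KOR1 and 16 to 7 in CTL1, and it is in capitals in these windows of 60 bases, which are shown because all 4 genes act in primary wall cellulose synthesis.
CESA1 (chr4:15646887-15646946, reverse strand): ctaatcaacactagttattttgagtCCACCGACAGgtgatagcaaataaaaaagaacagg
COB (chr5:24514489-24514548, reverse strand): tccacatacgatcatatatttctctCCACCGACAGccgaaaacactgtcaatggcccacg
KOR1 (chr5:20200649-20200708, reverse strand): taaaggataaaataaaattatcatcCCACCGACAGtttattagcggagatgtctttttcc
CTL1 (chr1:1768838-1768897, reverse strand): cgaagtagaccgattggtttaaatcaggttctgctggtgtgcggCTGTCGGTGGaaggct

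Mean log2 values of these holders did not follow a single pattern. CTL1 was at 8.90, 9.00, 9.25 and 9.32 in WL20, WL28, SH20 and SH28, whereas EXPB3 was at 5.64, 5.35, 4.87 and 5.23, AT3G10810 at 5.03, 5.43, 5.30 and 5.42 and AT3G24840 at 3.56, 3.68, 3.70 and 3.65. AT1G05860, whose promoter overlaps that of CTL1, was at 3.08, 3.51, 3.31 and 3.68.

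Partners of the complex were counted from a list of 12, all of them tested. Warmth in white light raised 3 of 12, shade in the cool raised 3 and shade with warmth raised 6, and none fell, where 10.8%, 5.43% and 14.9% of all genes were called higher. CTL1 rose with shade at both temperatures, by 0.36 ± 0.09 at 20 °C (limma adjusted p = 0.00994) and by 0.32 ± 0.09 at 28 °C (limma adjusted p = 0.0355), and had no call for warmth (0.10 and 0.07). Its libraries stood at 8.81, 8.98 and 8.90 in WL20, 8.96, 8.97 and 9.07 in WL28, 9.14, 9.32 and 9.30 in SH20 and 9.33, 9.32 and 9.31 in SH28, with all shade libraries above all others. CSI3, related to the protein that ties cellulose synthase to microtubules, rose with warmth in white light by 0.68 ± 0.14 (limma adjusted p = 0.00124) and under shade with warmth by 0.66 ± 0.14 (limma adjusted p = 0.00103). AT3G57420 rose in the same 2 comparisons and with shade in the cool (limma adjusted p = 0.0373). CSI1 itself, the main linker to microtubules, gave no call.

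Among the further CESA, COBRA-like and KORRIGAN genes 9 of 14 were tested. COBL2, a COBRA-like gene known from seed coat cellulose, stood at 2.86, 3.52 and 3.46 in WL20, 4.44, 4.32 and 4.36 in WL28, 3.74, 3.85 and 3.86 in SH20 and 3.88, 4.72 and 4.71 in SH28. Its warm libraries were all above its cool ones, though SH28 replicate 1 (3.88) was close to SH20 replicate 3 (3.86). COBL2 rose with warmth in white light by 1.09 ± 0.23 (limma adjusted p = 0.00159) and was not called in shade (0.62 ± 0.23, limma adjusted p = 0.146). COBL4, the COBRA-like gene of secondary walls, rose by 1.39 ± 0.46 in white light (limma adjusted p = 0.0395) on 4 to 46 reads per library. In shade its difference of 0.60 ± 0.46 was no call (limma adjusted p = 0.555). These were 2 of 9 called higher for warmth in white light, where 10.8% of all genes were. COBL5 fell by 0.69 ± 0.21 under shade with warmth (limma adjusted p = 0.0176). KOR2 gave no call, and CESA10, COBL6, COBL10, COBL11 and KOR3 were below the filter.

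UDP-glucose, the substrate of cellulose synthase, is supplied by sucrose synthases and UDP-glucose pyrophosphorylases. Of 8 such genes 1, UGP2, rose with warmth in white light, by 0.40 ± 0.13 (limma adjusted p = 0.0281), where 10.8% of all genes were called higher. Under shade with warmth 1 of 8, SUS1, fell, by 0.47 ± 0.16 (limma adjusted p = 0.0307), where 7.42% of all genes were called lower. The others had no call in the 5 comparisons, so these counts were near the shares over all genes.

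**Figure D4:**
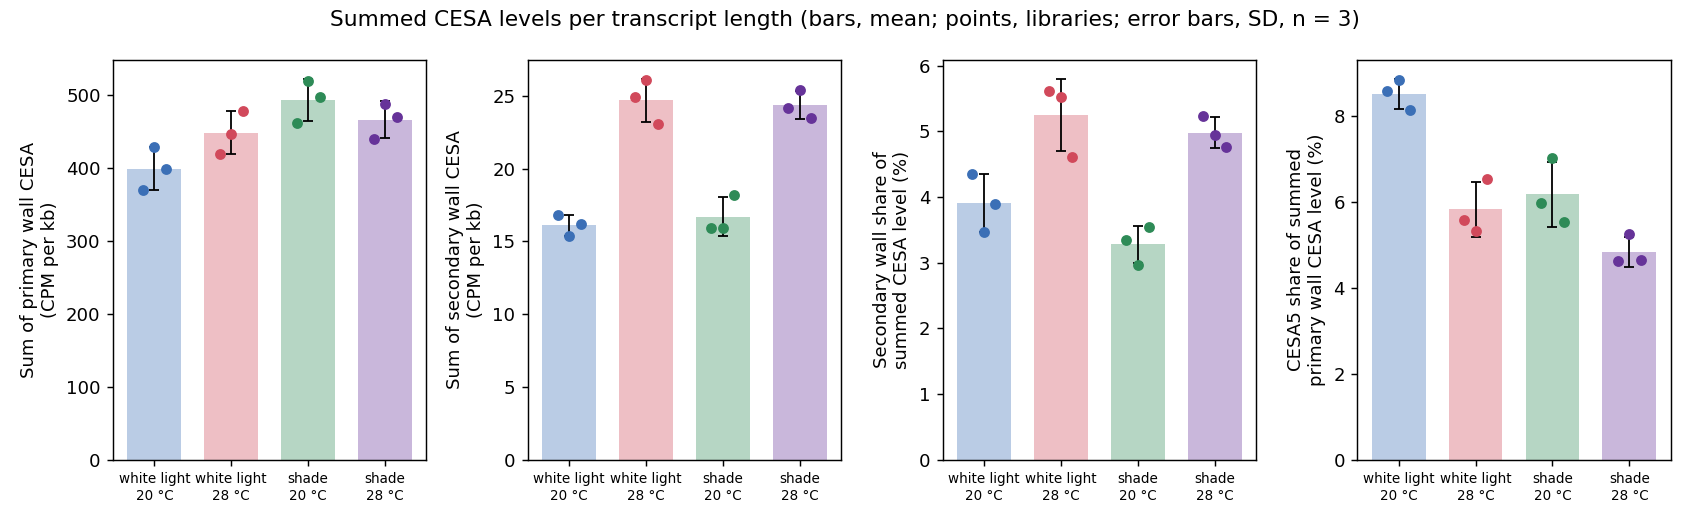
Summed levels per library of the 5 primary wall and the 3 secondary wall CESA genes (CPM per kb of transcript) the secondary wall share of both (percent), and the CESA5 share of the primary wall sum (percent), with points for libraries, bars for means and error bars of 1 SD (n = 3). The secondary wall sum was 23.1 to 26.1 CPM per kb at 28 °C and 15.4 to 18.2 at 20 °C, and the primary wall sum was lowest in WL20, at 370 to 428.

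Summed per kb, the 5 primary wall genes stood at 399 ± 29.3 CPM per kb in WL20, 448 ± 29.4 in WL28, 493 ± 29.2 in SH20 and 466 ± 24.9 in SH28 (SD, n = 3). The 3 secondary wall genes stood at 16.1 ± 0.715, 24.7 ± 1.49, 16.7 ± 1.34 and 24.4 ± 0.964 CPM per kb. The secondary wall share of the summed CESA level was 3.91 ± 0.441% in WL20, 5.25 ± 0.553% in WL28, 3.28 ± 0.286% in SH20 and 4.98 ± 0.237% in SH28. All warm libraries, at 4.61% to 5.61%, were above all cool ones, at 2.97% to 4.35%, and shares within a library do not depend on how libraries are scaled to each other. Together the 10 members took 0.229 ± 0.0156% of reads in WL20 and 0.264 ± 0.0144%, 0.285 ± 0.0153% and 0.283 ± 0.0106% in the other groups in the same order.

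The genes whose pattern lay closest were found by the root mean square difference of centred log2 values over the 12 libraries. For the mean profile of CESA1, CESA3 and CESA6, among 14191 genes whose mean log2 value reached 3, these were AT1G22882 at 0.06 and AT5G16880, the alpha-tubulin gene TUA6, the receptor kinase gene FER and the phospholipase gene PLDDELTA at 0.07, against a median of 0.29. TUA6 had mean log2 values of 9.28, 9.51, 9.76 and 9.76 in WL20, WL28, SH20 and SH28, and FER of 7.93, 8.10, 8.37 and 8.20. For CESA4, CESA7 and CESA8, among 18553 genes whose mean reached 1, the closest were ICU2, a DNA polymerase subunit, at 0.06, AT5G47435 at 0.08, the peptidase gene CEP2 and the UDP-xylose synthase gene UXS3 at 0.09 and AT5G42220 at 0.10, against a median of 0.38. UXS3 had means of 6.67, 7.20, 6.82 and 7.23, with the warm groups higher. The points share library depth and composition. The members' own differences from their profiles were 0.03 to 0.05 for the primary and 0.14 to 0.23 for the secondary wall genes. Each profile is a mean that includes the member itself, which makes these differences smaller, so they cannot be set against those of the other genes.

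With libraries scaled by their totals alone, the median log2 change of all tested genes was 0.16 for warmth in white light, 0.08 for warmth in shade and 0.05 for shade in the cool. Of the genes called for warmth in white light 69.3% were higher, against 39.8% after subtraction of the library medians, and for warmth in shade 52.4% against 25.1%. For shade with warmth the split was 66.7% against 44.5%. Under median subtraction CESA8 and KOR1 lost their calls for warmth in white light (0.51 and 0.19), CESA1, CESA3, CESA6 and CESA7 theirs for shade with warmth (0.11, 0.19, 0.20 and 0.38), CESA4 and CESA7 theirs for warmth in shade (0.51 and 0.44) and CESA3 its own for shade in the cool (0.32, limma adjusted p = 0.0517). The averaged effects lost KOR1 for warmth (0.11, from 0.24) and CESA1 and CESA3 for shade (0.19 and 0.20). CESA5 gained a call as lower for warmth in shade (-0.54), CESA6 gained one as higher for shade alone against warmth alone (0.35), and no called member changed direction.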

How the data were processed

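Each member was found by its locus identifier in the deposited table. Its values, in another unit than plain reads, are log2 CPM on the voom scale with 0.5 read added, as the authors deposited them; per the submitters' processing notes TopHat2 2.1.1, SAMtools 1.3, limma, R 4.0.2 and TAIR10 were used, and the read counter is not given in the sources used here. Column headings of ambient and heat were read as 20 and 28 °C. Whole reads came back from 100% of values to within 0.001 read.

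Genes with a log2 value of 0 or more in at least 3 of 12 libraries, 21316 of 33602, entered a limma 3.58.1 fit run in R 4.3.3 (4 group means, trended eBayes prior, Benjamini-Hochberg over all tested genes, threshold 0.05). The script was tested on simulated data. The members, the gene lists (96 genes with members, all matched) and the rule for named genes (per list the 3 smallest adjusted p-values) were chosen with earlier results of these data known, and the averaged effects and shade alone against warmth alone were added with them known. Same-numbered libraries did not deviate together (correlations -0.03 to 0.041 over 18 pairs), so they were not paired. Replicates differed by more than counting noise (chi-square per degree of freedom 3.03 to 8.88). Lengths, positions and upstream sequences came from RefSeq TAIR10.1 with Python 3.11.15, pandas 2.3.3, numpy 2.4.6 and Biopython 1.88, and figures from matplotlib 3.10.9.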

Additional observations from a re-analysis of the deposited data

How the results depend on the processing

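No member that passed the test changed direction under any alternative, and of 2130 values of members under alternatives 132 lost a call and 27 gained one. The calls of KOR1 and CESA5 for shade with warmth, KOR1 for shade in the cool, CESA4 for shade with warmth and averaged warmth, and CESA6 and KOR1 for averaged shade passed under every alternative. For warmth in white light 4 members were called, but 2 if the prior variance was constant, 2 if low values were not filtered, 2 after median subtraction and 2 by trimmed mean scaling, and 2 to 4 when 1 library was left out. For shade in the cool the 4 became 1 with a constant prior variance, 1 by quantile normalization and 2 by trimmed mean scaling, and 1 to 4 with 1 library left out. For shade with warmth the 7 became 4 with a constant prior, 4 by quantile normalization, 3 by median subtraction and 3 by trimmed mean scaling. For shade in the warm weights per value gave 1. For warmth in shade the 2 became 1 with a constant prior, no filter, median subtraction, quantile normalization, trimmed mean scaling, weights, or without the libraries richest in 18S reads (an alternative chosen after seeing the data), 0 with only the compared groups fitted, and 0 to 3 with 1 library left out. After median subtraction, quantile normalization, trimmed mean scaling and without the 18S-rich libraries that 1 was CESA5, lower by -0.54, -0.45, -0.50 and -0.59, and neither CESA4 nor CESA7 was called. For averaged warmth the 5 became 2 with a constant prior, which ended the calls of CESA5, CESA8 and KOR1. For averaged shade the 4 became 2 with a constant prior, no filter, median subtraction, quantile normalization or trimmed mean scaling, and 2 to 4 with 1 library left out. For shade alone against warmth alone the 1 became 2 after median subtraction and 2 with trimmed mean scaling, and 0 to 1 with 1 library left out. There CESA4 gave way to CESA7 with a constant prior (limma adjusted p = 0.077 and 0.0447) and to CESA8 without the 18S-rich libraries (-0.43 and -0.98, limma adjusted p = 0.257 and 0.0194), the count staying at 1. The cause of these moves was not tested.

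Replicate numbers did not pair the libraries, and a replicate block ended the CESA7 call for warmth in shade (0.54, limma adjusted p = 0.0506) and gave calls to CESA5 there (-0.43, limma adjusted p = 0.0328) and to CESA3 for warmth in white light (0.26, limma adjusted p = 0.0357). Over all genes the constant prior took the calls from 3333 to 1950 for warmth in white light, 1724 to 919 and 978 to 357 for shade in the cool and in the warm, 892 to 184 for warmth in shade, 95 to 6 for the interaction, 2465 to 1466 for averaged shade and 1673 to 802 for shade alone against warmth alone. Leaving out the libraries richest in 18S reads took them to 1665 for warmth in white light, 3093 of 4755 for shade with warmth, 549 in the warm, 347 for warmth in shade, 42 for the interaction, 2290 of 4063 for averaged warmth and 948 for the direct comparison. Leaving out 1 library gave 1113 (SH20 replicate 3) for shade in the cool, 402 to 533 for warmth in shade and 59 to 155 for the interaction. Per coding length the secondary wall share was 2.95% in SH20 and 4.49% in SH28, both lower than per transcript length. Depth limits the secondary wall genes most, at 52 to 154 reads in a library.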
